A study of Mus musculus with 24 samples.

Results

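The subject is a set of 8 of 24 mouse brain RNA sequencing libraries, those whose columns in the gene count table carry the numbers 3, 6, 9, 12, 15, 18, 21 and 24, set against the other 16. The columns form a regular series, but the set was selected on measured values: these 8 libraries had been seen to be rich in RNA of the cerebellum and hindbrain. What chose them were the levels of regional genes, among them the cerebellar genes Gabra6, Cbln1 and Pcp2, the striatal gene Drd1 and the cortical and hippocampal gene Neurod6. Every difference between the 8 and the 16 is therefore a description of size and spread, and no p-value is read from it. Tests are given only for the E code and the time code, which did not choose the libraries.

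Each library was made from polyadenylated RNA of mouse brain after TRIzol extraction. Library names hold an E code (E4 or E3) and a time code (05, 10 or 15), which the labels do not spell out, and the series title concerns ApoE4, lipid in microglia and an AsxL1/LXRα axis. The labels name no age, sex, strain, treatment or dissected region. The sample titles name months, January and February for code 05, March and April for 10, and May and June for 15. The 8 libraries are 4 with E4 (E4-05 3, E4-10 2, E4-15 1 and E4-15 4) and 4 with E3 (E3-05 2, E3-10 1, E3-10 4 and E3-15 3), with 2, 3 and 3 at time codes 05, 10 and 15. The other 16 hold 8 libraries of each E code, with 6, 5 and 5 at the 3 time codes. The titles speak of biological replicates without saying whether each is its own animal. The p-values below therefore set differences against the spread between these samples only, and need not extend to other animals. Total counts, in M (1M is a count of 1000 times 1000), were 39.4 to 65.7 (median 53.3) in the 8 and 37.4 to 99.5 (median 45.3) in the 16.

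The cerebellum is built from few kinds of neuron. Granule cells, small excitatory neurons that outnumber all others, receive mossy fibres and send parallel fibres to the inhibitory Purkinje cells, whose axons are the only output of the cerebellar cortex, and Bergmann glia wrap the Purkinje cell synapses. The medulla and pons hold glycine neurons, motor and autonomic nuclei, and the noradrenaline and serotonin cell groups, and their neurons keep the Hox and homeodomain codes that patterned the embryonic hindbrain. In bulk RNA, more cells of a type and more of its RNA per cell cannot be told apart, and this holds for every level below.

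The marker genes that chose the set are given first, as a description. Levels are in CPM, counts per 1M counts of the library, after scaling by TMM factors. Gabra6, a GABA-A receptor subunit of granule cells, ran at 85.5 to 533 CPM (median 376) in the 8 libraries, against 0 to 4.63 CPM (median 0.212) in the other 16. Cbln1, a synapse organizer released by granule cells, ran at 185 to 807 CPM (median 528), against 9.43 to 47.9 CPM (median 27.7). Pcp2, a Purkinje cell protein, ran at 21.4 to 130.2 CPM (median 110.3), against 0.0878 to 0.839 CPM (median 0.365). The ranges of these 3 genes did not overlap. Drd1, the D1 dopamine receptor, was low in the 8, at 0.811 to 2.55 CPM (median 1.30), against 10.6 to 115 CPM (median 37) in the 16, also without overlap. Neurod6, a transcription factor of cortical and hippocampal excitatory neurons, was lower too, but the ranges overlapped, at 6.14 to 21.1 CPM (median 8.05), against 11.2 to 149.5 CPM (median 78.1). The highest of the 8 was E4-15 4 and the lowest of the 16 was E4-05 4.

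**Figure D1:**
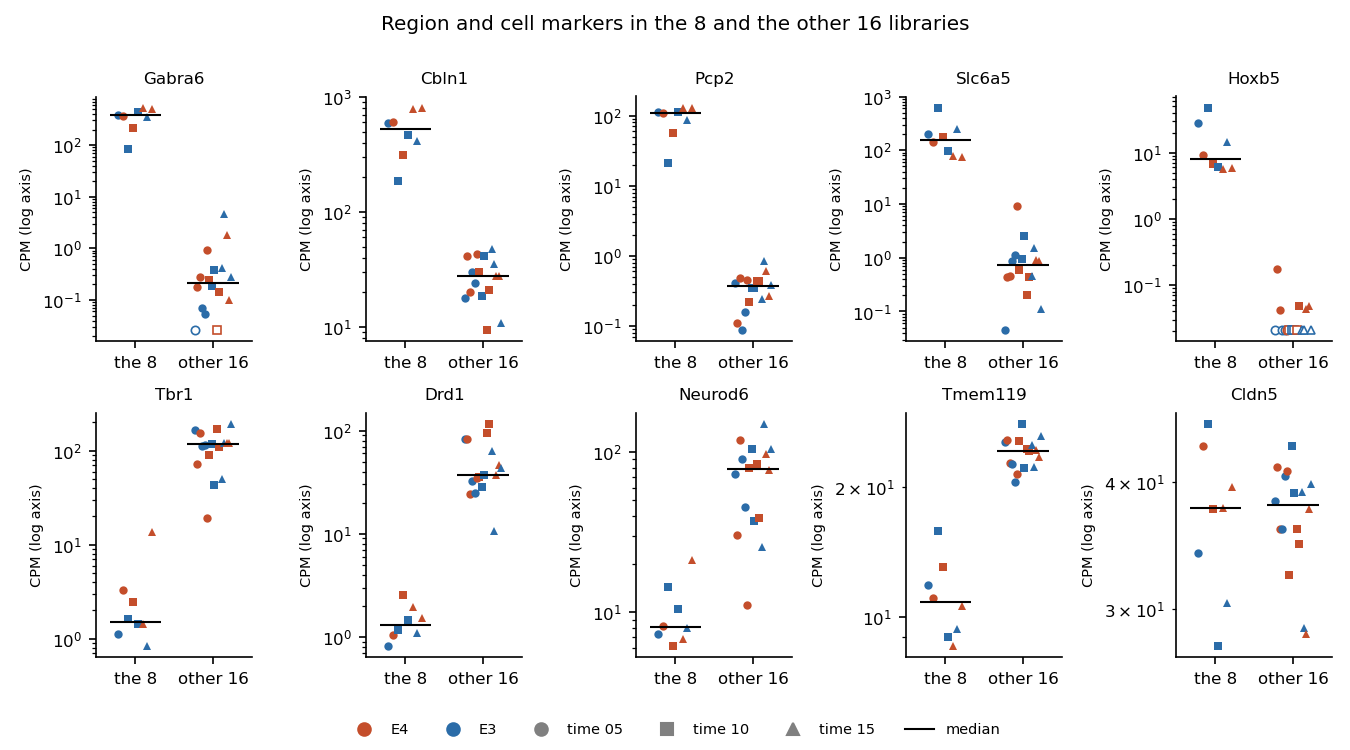
CPM on a log axis for 10 genes in the 8 libraries (left of each panel) and the other 16 (right). Each point is a library, coloured by E code and shaped by time code, bars are medians, and open symbols at the lower edge stand for 0 counts. Gabra6, Cbln1, Pcp2, Slc6a5 and Hoxb5 separate upward in the 8, Tbr1, Drd1 and the microglial gene Tmem119 separate downward, Neurod6 overlaps, and the endothelial gene Cldn5 lies at the same level in both.

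Gabra6, Cbln3 and Fat2 had the largest differences of the granule cell list, so the 250 bases before their transcription start are shown here. They were read from RefSeq promoters on GRCm38.p6, where Gabra6 lies at chr11:42321073-42321322, Cbln3 at chr14:55884257-55884506 and Fat2 at chr11:55312258-55312507, all on the minus strand and written 5′ to 3′. The build of the counts is mm39, so these coordinates are not those of the count table. Capitals mark the core motif of nuclear factor I (NFI) proteins, TTGGC, which reads GCCAA on the other strand; both strands were searched.
Gabra6: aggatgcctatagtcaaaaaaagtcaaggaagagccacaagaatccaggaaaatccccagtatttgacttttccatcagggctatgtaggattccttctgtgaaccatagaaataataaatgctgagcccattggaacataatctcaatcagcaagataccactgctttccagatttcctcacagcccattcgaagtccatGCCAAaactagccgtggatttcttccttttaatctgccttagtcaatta
Cbln3: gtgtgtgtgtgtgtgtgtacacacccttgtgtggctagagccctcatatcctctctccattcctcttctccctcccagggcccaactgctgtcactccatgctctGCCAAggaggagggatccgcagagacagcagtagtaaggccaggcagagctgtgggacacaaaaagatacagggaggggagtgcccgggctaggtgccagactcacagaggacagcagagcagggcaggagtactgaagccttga
Fat2: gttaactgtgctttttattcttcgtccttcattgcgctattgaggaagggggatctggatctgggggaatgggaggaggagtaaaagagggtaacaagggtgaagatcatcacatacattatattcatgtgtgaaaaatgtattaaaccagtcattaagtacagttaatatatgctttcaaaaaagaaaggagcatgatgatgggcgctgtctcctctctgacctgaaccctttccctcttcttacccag
The NFI motif was found once before Gabra6, with its first base at position -49 from the start, once before Cbln3, at -145, and not before Fat2. An E-box, CANNTG, the core motif of basic helix-loop-helix factors such as Neurod1, was found 0 times before Gabra6 and once each before Cbln3 and Fat2. Of the 24 granule cell genes, 17 had a promoter in the RefSeq table, with 24 promoters in all, and 12 of these held the NFI motif, against 41.5% of all 32851 promoters. The E-box was in 18 of the 24, against 66.2% of all. These matches describe letters in a window, not binding.

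Across the transcriptome the 8 libraries stood apart from the 16 along the first principal component, which carried 51.1% of the variance. Of 20437 genes that passed the filter on low counts, 6410 (31.4%) were higher and 5782 (28.3%) lower in the 8 at an adjusted p under 0.05 in edgeR's quasi-likelihood fit with E code and time code as covariates. This threshold is used below only to sort genes into higher, lower and not called, since the same values chose the libraries. With a change beyond 2-fold as well, 1793 genes (8.77%) were higher and 1885 (9.22%) lower, and 1221 genes (5.97%) lay higher and 1577 (7.72%) lower with no overlap between the 8 and the 16. The coding genes among those beyond 2-fold were 1006 higher and 1238 lower, and the long noncoding RNAs 643 and 575. The median log2 fold change over all genes was 0.04, so the lists below are read against a centre near 0. Counts of list members called are read against the shares of all genes, 31.4% higher and 28.3% lower. Counts without overlap are read against 5.97% and 7.72%. Lists that hold Gabra6, Cbln1, Pcp2, Drd1 or Neurod6 count these genes too, although they helped choose the libraries. A gene that passes the filter on low counts only through the set where it is high has to differ. Such members were not counted apart in any list below.

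The genes with the widest gaps were of both cerebellar and medullary kinds. Beside Gabra6 (9.53, SE 0.50 on the log2 scale), Cbln3, Fat2 and Pcp2, the 15 highest held the Hox genes Hoxb5, Hoxa5 and Hoxb8, the noradrenaline transporter Slc6a2, the glycine transporter Slc6a5 and the Purkinje cell corepressor Skor2. They also held genes named for other roles. Crtam, an adhesion receptor first known from T cells, ran at 10.4 to 56.4 CPM (median 40.4) in the 8, against 0 to 0.432 CPM (median 0.0922) in the 16. Sycp1, a protein of the synaptonemal complex of meiosis, ran at 2.55 to 21.1 CPM (median 15.3), against 0 to 0.110 CPM (median 0). Cnpy1, a canopy family protein linked to FGF signalling, ran at 43.5 to 252 CPM (median 190.4), against 0 to 1.29 CPM (median 0.348), and none of these ranges overlapped. Nrk, a kinase of the NIK group (7.68, SE 0.27), and the predicted gene Gm32113 (8.64, SE 0.33) complete the 15. The 15 lowest included Smim43, a small membrane protein (-5.78, SE 0.52), the noncoding RNA Dlx6os1 (-5.47, SE 0.46), and Tbr1, a regulator of telencephalic excitatory neurons (-5.35, SE 0.53), which stood at -6.02 without E4-15 4. Ddn, dendrin of the postsynaptic density, ran at 5.68 to 145 CPM (median 19.9) in the 8, against 322 to 1289 CPM (median 1009) in the 16, and the T cell coreceptor gene Cd4 at 0.237 to 0.779 CPM (median 0.525), against 1.51 to 54.2 CPM (median 13.2). Neither range overlapped. Also among the 15 were Kcnj4, an inward rectifier channel (-5.06, SE 0.37), and Rgs14, a regulator of G protein signalling known from hippocampal area CA2 (-4.75, SE 0.30).

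Granule cell genes were higher as a group. Of 24 genes tested, 22 were higher and 1 lower, against 31.4% and 28.3% of all genes. The median log2 fold change was 2.11, and 14 did not overlap. These counts include Gabra6 and Cbln1, which helped choose the libraries. Cbln3, the cerebellin made almost only by granule cells, ran at 248 to 1369 CPM (median 992) in the 8, against 0.388 to 14.2 CPM (median 1.44) in the 16, and Fat2, a giant cadherin of parallel fibres, at 144 to 772 CPM (median 584), against 0.0684 to 7.89 CPM (median 0.971). Every one of the 8 lay above every one of the 16 for both. The regulators of the lineage followed: Neurod1 (4.30, SE 0.22), a factor that drives granule cell differentiation, Zic1 (2.90, SE 0.28) and Zic2 (2.77, SE 0.20), zinc finger factors of the cerebellar primordium, and Pax6 (2.66, SE 0.14), which granule cell precursors need. Smaller differences were found for Etv1 (1.54, SE 0.14), an ETS factor of maturing granule cells, Reln (1.22, SE 0.14), the secreted guidance protein reelin, Kcnk9 (0.57, SE 0.07), a potassium leak channel, and Gabrd (0.52, SE 0.19), the delta subunit of extrasynaptic GABA-A receptors. The ranges of these 4 overlapped. Slc17a7, the vesicular glutamate transporter that granule cells share with cortical neurons, went the other way, at 307 to 773 CPM (median 432) in the 8, against 362 to 2008 CPM (median 1303) in the 16, and the ranges overlapped.

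Purkinje cell genes separated as a group too, with 23 of 25 higher, 1 lower, a median of 2.80 and 19 without overlap. Pcp2, which helped choose the libraries, is counted here. Car8, which lowers the affinity of the IP3 receptor, ran at 277 to 1631 CPM (median 1279) in the 8, against 10.9 to 17 CPM (median 14.4) in the 16, and its target Itpr1, the IP3 receptor of Purkinje cells, at 641 to 3158 CPM (median 2411), against 334 to 966 CPM (median 509). Car8 did not overlap, whereas the lowest of the 8 for Itpr1 lay inside the range of the 16. Ppp1r17, a phosphatase inhibitor regulated by cyclic GMP, ran at 43.2 to 234 CPM (median 196), against 0.145 to 3.54 CPM (median 1.20), and did not overlap. The excitatory input side was represented by Homer3 (3.98, SE 0.23), a postsynaptic scaffold, and Slc1a6 (3.38, SE 0.17), the glutamate transporter EAAT4. Among the calcium buffers, Pvalb (2.66, SE 0.19) and Calb1 (2.20, SE 0.14) were higher. Kcng4 (3.29, SE 0.30), a modifying potassium channel subunit, and Icmt (2.20, SE 0.11), a methyltransferase of prenylated proteins, were higher as well. Foxp2, a factor of Purkinje cells and of many forebrain neurons, was lower (-0.69, SE 0.18), and Pcp4, a calmodulin-binding peptide that the striatum also holds, was not called, at 189 to 481 CPM (median 379) in the 8, against 229 to 554 CPM (median 378) in the 16.

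The list of other cerebellar neurons was mixed, with 9 of 15 genes higher and 6 lower (median 0.59). Among those higher were Pax2 (5.39, SE 0.21), a factor of newborn cerebellar interneurons that also marks dorsal medullary neurons, Eomes (3.56, SE 0.46), the T-box factor of unipolar brush cells, Lmx1a (1.88, SE 0.26), a regulator of the rhombic lip, and Megf11 (1.59, SE 0.10), a receptor of cell spacing. Eomes ran at 6.31 to 43.7 CPM (median 13.2) in the 8, against 0.0865 to 4.87 CPM (median 1.35) in the 16, and did not overlap. Those lower included Tbr1 (-5.35, SE 0.53), which the cerebellar nuclei share with cortical projection neurons, Grm2 (-1.17, SE 0.18), the receptor of Golgi cells, and Sorcs3 (-0.96, SE 0.09), a sorting receptor. Both Tbr1 and Grm2 are also genes of the forebrain.

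Brainstem genes were 18 of 26 higher and 1 lower, with a median of 2.30 and 11 without overlap. These counts include any members that passed the filter only through the 8 and so had to differ. Slc6a5, the transporter that defines glycine neurons, ran at 76.2 to 622 CPM (median 158) in the 8, against 0.0456 to 9.21 CPM (median 0.740) in the 16, without overlap. Lbx1 (8.10, SE 0.40) and Tlx3 (7.25, SE 0.37), homeodomain factors of dorsal hindbrain neurons, had ranges that did not overlap, although Tlx3 was only 2.12 to 10.2 CPM (median 8.24) in the 8, against 0 to 0.122 CPM (median 0.0351) in the 16. Nefh (1.54, SE 0.24), the heavy neurofilament of large axons, Spp1 (2.27, SE 0.23), osteopontin of brainstem motor neurons and some glia, and Esrrb (1.71, SE 0.20), an orphan nuclear receptor, were higher too. Slc17a6, the vesicular glutamate transporter of brainstem and thalamic neurons, was not called, at 111 to 253 CPM (median 155) in the 8, against 29 to 356 CPM (median 124) in the 16 (0.35, SE 0.36). The motor neuron genes Chat (-0.47, SE 0.48), Slc5a7 (0.42, SE 0.47) and Slc18a3 (0.78, SE 0.50) were not called either. Isl1, a factor of motor neurons and of striatal precursors, was lower (-1.96, SE 0.59).

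Within the monoamine and acetylcholine genes the noradrenaline and serotonin markers stood out, with 8 of 16 higher and 0 lower. Slc6a2, the noradrenaline transporter, ran at 0.525 to 23.7 CPM (median 13.5) in the 8, against 0 to 0.476 CPM (median 0.0211) in the 16, and Dbh, the enzyme that makes noradrenaline, at 0.629 to 18.8 CPM (median 12.8), against 0.165 to 1.06 CPM (median 0.428). The first did not overlap and the second did. Tph2, the brain enzyme of serotonin synthesis, ran at 4.60 to 38.4 CPM (median 15.3), against 0.844 to 3.12 CPM (median 1.49), and its regulator Fev (3.80, SE 0.58) was also higher, both without overlap. Slc6a4, the serotonin transporter (6.35, SE 0.64), was higher with overlap. The dopamine transporter Slc6a3 was not called, at 0.406 to 61.9 CPM (median 2.09) in the 8, against 0.319 to 65.5 CPM (median 6.25) in the 16, and neither was Th, the enzyme shared by dopamine and noradrenaline neurons (0.68, SE 0.34).

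**Figure D2:**
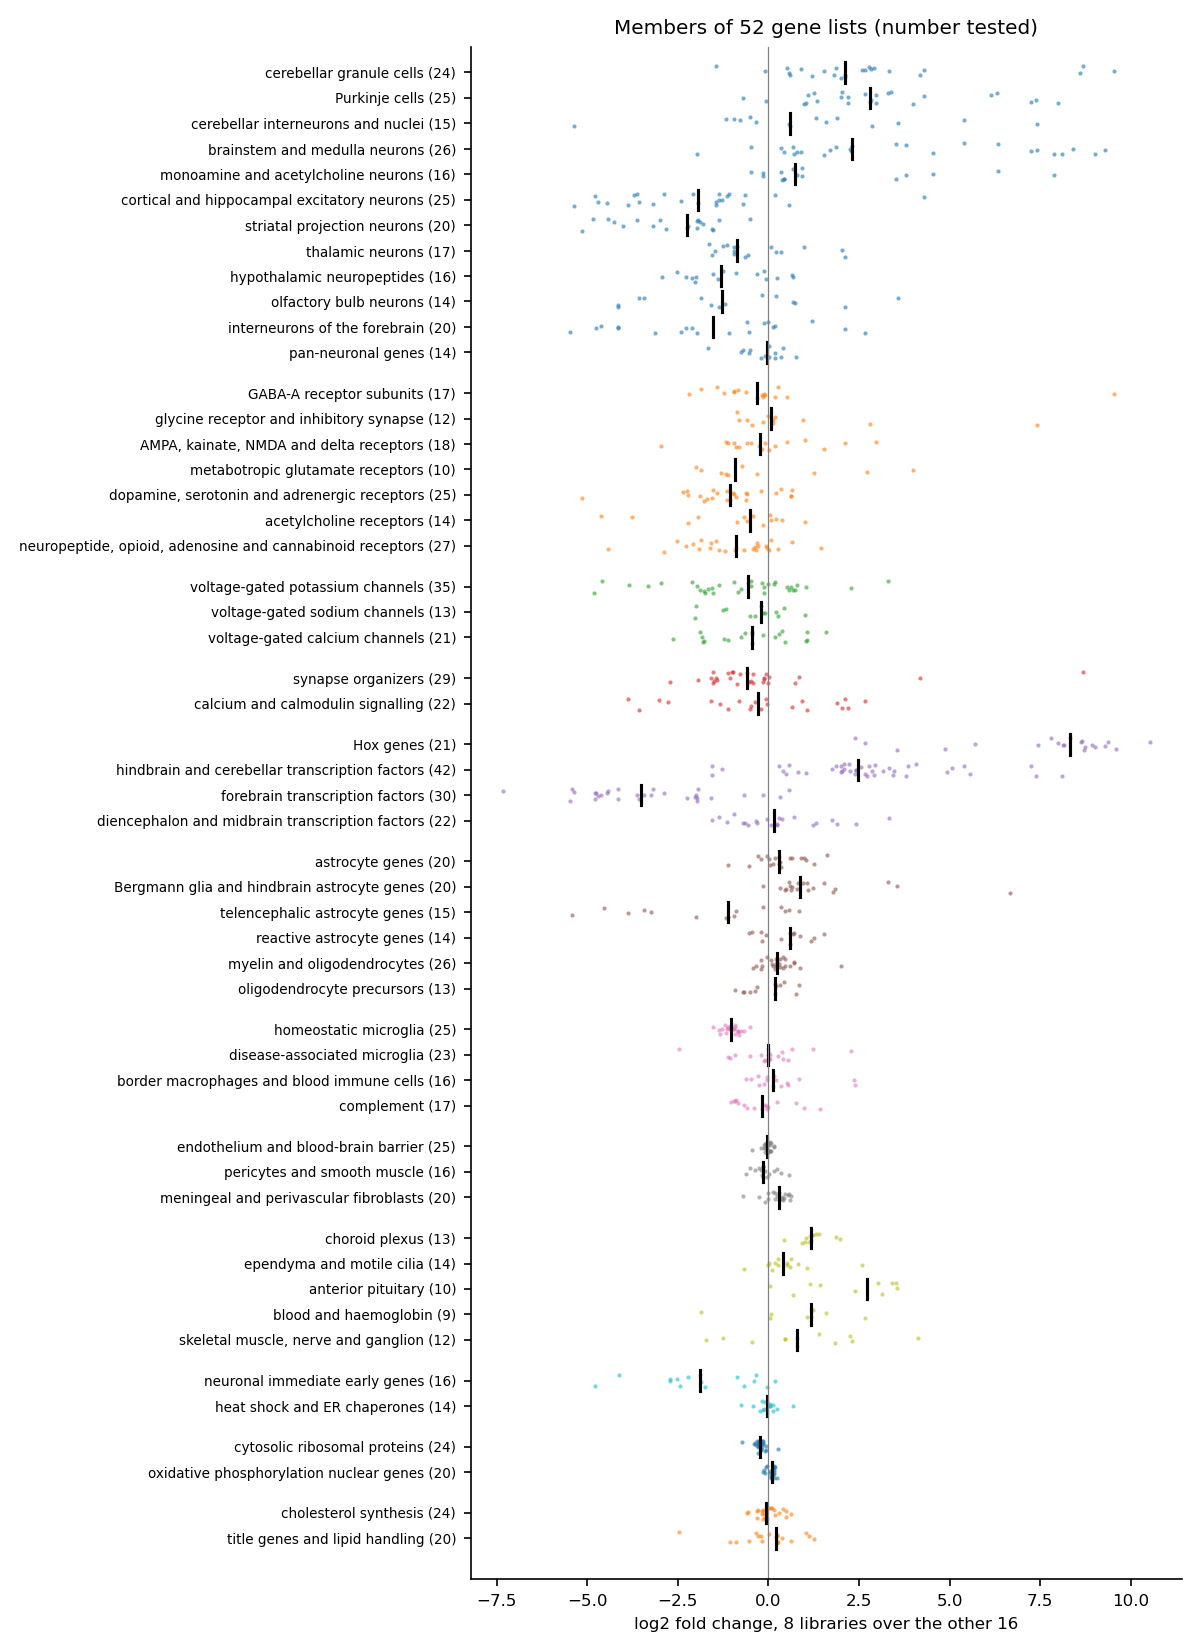
Log2 fold change, 8 libraries over the other 16, of every tested member of the 52 gene lists (horizontal axis). Points are genes, coloured by class of list, and black bars are list medians. The Hox list lies at 8.32 and the Purkinje, anterior pituitary, hindbrain transcription factor, brainstem and granule cell lists above 2, the forebrain transcription factors lie at -3.5, and the endothelial list lies at -0.05.

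Neurons of the forebrain were the counterpart. Of 25 cortical and hippocampal genes 22 were lower and 1 higher (median -1.94), and of 20 striatal genes 19 were lower and 0 higher (median -2.23). The first list counts Neurod6 and the second Drd1, which helped choose the libraries. Camk2a, the postsynaptic kinase of excitatory forebrain neurons, ran at 200.4 to 507 CPM (median 228) in the 8, against 1133 to 4837 CPM (median 3323) in the 16, and Nrgn, the calmodulin-binding protein neurogranin, at 44.5 to 128 CPM (median 61.1), against 324 to 1809 CPM (median 963). Neither overlapped. Mef2c (-3.18, SE 0.28) and Emx1 (-4.44, SE 0.47), regulators of cortical neurons, were lower too, and the exceptions were Neurod1, which granule cells share, and Neurod2 (0.56, SE 0.27) and Prox1 (0.18, SE 0.20), which were not called. In the striatal list Adora2a (-4.43, SE 0.48), the adenosine receptor of indirect pathway neurons, Rgs9 (-2.84, SE 0.34) and Adcy5 (-1.88, SE 0.22), which shape dopamine signalling, and Pdyn (-3.17, SE 0.35), the dynorphin precursor, were lower. Adora2a overlapped in range, at 2.77 to 5.51 CPM (median 3.12) in the 8, against 3.501 to 197 CPM (median 60.6) in the 16. Scn4b, a sodium channel subunit also found in Purkinje cells, was the 1 striatal gene not called (-0.52, SE 0.28).

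Lists of the diencephalon and olfactory bulb separated less cleanly. Thalamic genes were 3 of 17 higher and 8 lower (median -0.87), hypothalamic neuropeptides 1 of 16 higher and 6 lower (median -1.32), and olfactory bulb genes 4 of 14 higher and 7 lower (median -1.28). The thalamic median was -0.44 without E3-10 3 and -0.42 with limma-voom. Necab1 (-1.64, SE 0.11), a calcium-binding protein, Zmat4 (-1.26, SE 0.18), a zinc finger protein, and Synpo2 (-1.46, SE 0.37), an actin-binding protein, were lower, whereas Tcf7l2, the factor of thalamic identity, was not called, at 7.16 to 91.1 CPM (median 44) in the 8, against 5.21 to 229 CPM (median 43.3) in the 16. Among peptides, Sst (-2.12, SE 0.18) and Npy (-2.26, SE 0.25), which cortical interneurons also make, did not overlap. The peptides of small hypothalamic nuclei, such as Hcrt at 0 to 18.8 CPM (median 0.104) in the 8, against 0 to 31.2 CPM (median 3.68) in the 16, and Avp at 0 to 6.07 CPM (median 0.0888), against 0.302 to 51.9 CPM (median 6.85), varied widely in both sets and overlapped. Forebrain interneuron genes were 13 of 20 lower and 3 higher (median -1.53). Dlx1 (-4.14, SE 0.50), Dlx2 (-4.15, SE 0.50) and Lhx6 (-4.63, SE 0.38), factors of ganglionic eminence lineages, and Vip (-3.12, SE 0.29), a peptide of cortical interneurons, were lower, Dlx1 at -4.80 without E4-10 2, while Pvalb (2.66, SE 0.19) and Calb2 (2.12, SE 0.29), which cerebellar neurons make, were higher. Gad1, the main GABA synthesis enzyme, was not called, at 273 to 649.9 CPM (median 545) in the 8, against 448 to 635 CPM (median 517) in the 16.

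Genes that all neurons use had a median near 0 (-0.05) but differed in both directions. Of 14 genes 5 were higher and 6 lower, against 31.4% and 28.3% of all genes. Snap25, the presynaptic fusion protein, ran at 2274 to 2895 CPM (median 2428) in the 8, against 1876 to 3226 CPM (median 2418) in the 16, and Rbfox3, the nuclear protein NeuN, at 173 to 369.9 CPM (median 279), against 171 to 369 CPM (median 276). Snap25 (0.01, SE 0.09) and Rbfox3 (0.02, SE 0.14) were not called. Syt1, the fast calcium sensor of release, had the largest difference of the list, at 539 to 825 CPM (median 644) in the 8, against 1412 to 2478 CPM (median 1984) in the 16. It was lower without overlap, as was the vesicle protein Syp (-0.52, SE 0.05), while Stmn2, a microtubule regulator of axons, was higher without overlap by a small step (0.40, SE 0.03).

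GABA-A receptors differed in their subunit make-up. Of 17 subunits 2 were higher and 8 lower (median -0.32). Corrected for exon length, Gabra6 made up 27.9% to 62.9% (median 57.8%) of alpha subunit RNA in the 8 and 0% to 1% (median 0.0554%) in the 16. Gabra4, a subunit of forebrain extrasynaptic receptors, held 1.6% to 4.13% (median 1.93%) in the 8 and 11.3% to 21% (median 14.8%) in the 16. The shares of Gabra6 and Gabra4 did not overlap between the sets. Gabra6 is among the genes that chose the libraries, and a larger share of it lowers the other shares. The difference in make-up is therefore a description. In CPM, Gabra4 was lower as well (log2 fold change -2.18). Gabrg3 (-1.84, SE 0.17), Gabra3 (-1.21, SE 0.12) and Gabrb1 (-0.96, SE 0.07) were lower without overlap, whereas the widespread subunit Gabrb2 was not called (-0.15, SE 0.09).

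Of 12 genes of glycine receptors and inhibitory synapses, 5 were higher and 4 lower (median 0.06). Beside Slc6a5, Glra1 (2.79, SE 0.45), the adult glycine receptor subunit, and Slc6a9 (0.96, SE 0.14), the glial glycine transporter, were higher, and Glra1 ran at 9.71 to 98 CPM (median 24) in the 8, against 0.356 to 14.9 CPM (median 3.95) in the 16, with overlap. Glra2 (-0.88, SE 0.19), the fetal form, was lower, while Gphn, gephyrin, the scaffold of inhibitory synapses, was higher by a small step (0.12, SE 0.04).

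Ionotropic glutamate receptors differed in make-up as well, with 5 of 18 higher and 8 lower (median -0.22). Among NMDA receptor GluN2 subunits, per exon length, Grin2c, the subunit of mature granule cells, held 57.2% to 87.1% (median 83.1%) in the 8 and 20.3% to 33.4% (median 24.7%) in the 16, and Grin2b, the subunit of forebrain neurons, 2.4% to 10.8% (median 4.25%) in the 8 and 32.7% to 49.2% (median 43.6%) in the 16. Neither share overlapped. In CPM, Grin2b ran at 44.7 to 92.6 CPM (median 63.6) in the 8, against 297 to 678 CPM (median 473) in the 16. Gria4, an AMPA receptor subunit with fast kinetics, held 32.3% to 37.2% (median 35.3%) of AMPA subunit RNA in the 8 and 10.3% to 20.6% (median 11.8%) in the 16. Grid1, a delta receptor, was lower (-0.94, SE 0.07). Gria3 (-0.80, SE 0.11), Grik5 (-1.12, SE 0.09) and Grin2a (-1.17, SE 0.15) were lower without overlap, and Gria1 was not called (-0.18, SE 0.12).

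Metabotropic receptors and Homer scaffolds were 3 of 10 higher and 7 lower, so no member was left uncalled. Grm4, the presynaptic receptor of parallel fibres, ran at 146 to 689 CPM (median 412) in the 8, against 43.3 to 100.1 CPM (median 57.2) in the 16, and Grm5, a receptor of forebrain neurons, at 45 to 76.5 CPM (median 58.3), against 167 to 338 CPM (median 236). Neither overlapped. Among scaffolds Homer3 (3.98, SE 0.23) was higher, Homer1 (-1.87, SE 0.18) and Homer2 (-1.30, SE 0.10) lower.

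**Figure D3:**
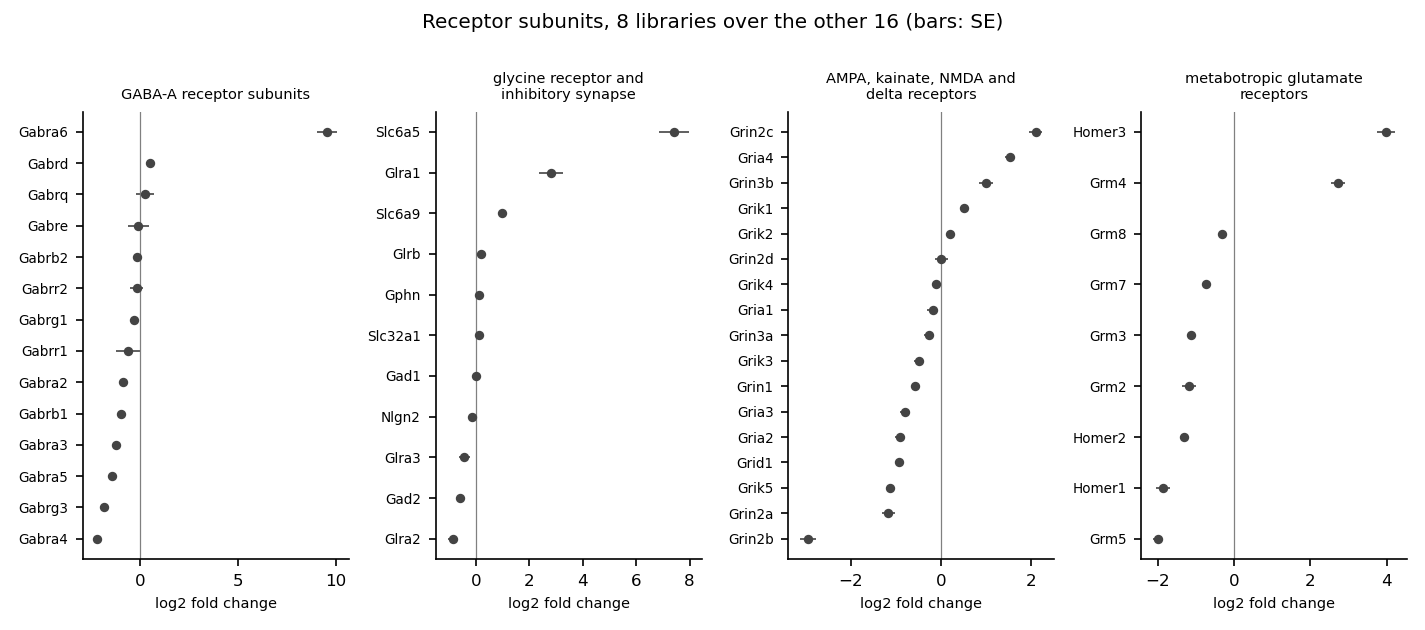
Log2 fold change, 8 libraries over the other 16, of members of 4 receptor families, without those not reported here, sorted within each panel; bars are SE of the edgeR fit. Of the members drawn, Gabra6, Slc6a5, Grin2c and Homer3 lie farthest right in their families and Gabra4, Glra2, Grin2b and Grm5 farthest left.

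Receptors of monoamines and of peptides were mostly lower. Of 25 dopamine, serotonin and adrenergic receptors 18 were lower and 2 higher (median -1.05). Drd2, the D2 receptor, ran at 6.31 to 17.2 CPM (median 9.59) in the 8, against 7.12 to 119.7 CPM (median 39.5) in the 16, with overlap, whereas Adrb1 (-2.36, SE 0.13), the beta-1 adrenergic receptor, and Htr6 (-2.24, SE 0.19), a striatal serotonin receptor, did not overlap. Htr1b (0.34, SE 0.14), a presynaptic serotonin receptor, was 1 of the 2 higher. Of 14 acetylcholine receptors 6 were lower and 1 higher (median -0.51), with the muscarinic receptors Chrm1 (-4.60, SE 0.38), Chrm4 (-3.77, SE 0.19) and Chrm3 (-2.22, SE 0.19) apart in all libraries. Chrm1 ran at 2.53 to 26.9 CPM (median 5.98) in the 8, against 58.8 to 280.2 CPM (median 211) in the 16, while Chrm2, the receptor of the brainstem, was not called (0.08, SE 0.19). Of 27 peptide, opioid, adenosine and cannabinoid receptors 15 were lower and 2 higher (median -0.90). The 2 higher were Crhr1, a receptor of corticotropin-releasing hormone, a peptide of climbing fibres, at 30.9 to 71.9 CPM (median 57) in the 8, against 14.2 to 27.4 CPM (median 19.7) in the 16, without overlap, and Cnr1, the cannabinoid receptor of parallel fibres (0.66, SE 0.16). Sstr4 (-2.88, SE 0.25), Cckbr (-2.51, SE 0.25) and Sstr2 (-2.27, SE 0.19) were lower without overlap, and the adenosine receptor Adora1 was not called (-0.07, SE 0.10).

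Voltage-gated channels held a small set of higher genes among many lower ones. Of 35 potassium channel genes 9 were higher and 20 lower (median -0.55). Kcna1, a Kv1 subunit of axons, ran at 458 to 767 CPM (median 488) in the 8, against 218 to 409.6 CPM (median 308) in the 16 (0.78, SE 0.11), and the ranges did not overlap. Kcnc1 (1.03, SE 0.11) and Kcna2 (0.56, SE 0.10) were higher with overlap. Kcnv1 (-4.80, SE 0.42), Kcnh3 (-4.60, SE 0.33), Kcnf1 (-3.84, SE 0.23), Kcnip2 (-3.32, SE 0.21) and Kcnq5 (-2.95, SE 0.25) were lower in all 8, Kcnh3 at 2.62 to 13.3 CPM (median 3.83) in the 8, against 39.8 to 187 CPM (median 112) in the 16. Sodium channels varied less, with 2 of 13 higher and 6 lower (median -0.20). Of the main alpha subunits Scn8a was not called (-0.08, SE 0.09) and Scn1a (0.43, SE 0.13) was higher, and the auxiliary subunit Scn3b (-2.01, SE 0.18) was lower without overlap.

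Calcium channels were 7 of 21 higher and 13 lower (median -0.45). The T-type channel Cacna1g (1.58, SE 0.15), the P/Q-type channel Cacna1a (1.08, SE 0.13), whose current was named for Purkinje cells, and its partner Cacna2d2 (1.03, SE 0.14) were higher, with Cacna1a at 155 to 422 CPM (median 316) in the 8, against 97.7 to 196 CPM (median 149) in the 16. All 3 overlapped. Of the auxiliary gamma subunits that traffic AMPA receptors, Cacng2 (0.46, SE 0.08), stargazin, was higher without overlap, and Cacng3 (-2.64, SE 0.18) and Cacng8 (-1.88, SE 0.16) were lower without overlap. The T-type channel of the forebrain Cacna1h (-1.82, SE 0.12) was lower.

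Synapse organizers were 4 of 29 higher and 19 lower (median -0.58). Cbln1 and Cbln3 were the 2 members with large positive values. C1ql1, the climbing fibre organizer made by the inferior olive, was higher (0.85, SE 0.31), at 8.02 to 89 CPM (median 14.9) in the 8, against 8.97 to 17.8 CPM (median 11.9) in the 16, but overlapped, and its value was 0.09 without the 3 libraries E4-10 2, E3-05 2 and E3-10 1, an alternative chosen after the data were seen. Nptx1 (0.73, SE 0.19), a pentraxin that clusters AMPA receptors, was higher, its relative Nptx2 (-2.71, SE 0.22) lower without overlap. Lrrtm1 (-1.93, SE 0.13), Lrrtm4 (-1.52, SE 0.10), Nlgn1 (-1.0, SE 0.09) and Adgrb2 (-1.44, SE 0.11) were lower in every one of the 8, and the neurexins Nrxn2 (0.02, SE 0.07) and Nrxn3 (-0.02, SE 0.05) were not called. Of 22 genes of calcium and calmodulin signalling 8 were higher and 11 lower (median -0.28). Hpcal1 (1.89, SE 0.14) and Calb2 (2.12, SE 0.29) stood against Hpca (-2.77, SE 0.16) and Camkv (-3.02, SE 0.17), the first pair calcium sensors and buffers of cerebellar neurons, the second a sensor and a pseudokinase of forebrain dendrites, all 4 without overlap.

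The Hox genes, which pattern the embryo along its axis and stay on behind the anterior hindbrain, had the list median farthest from 0. Of 39 Hox genes 21 passed the filter on low counts, and these 21 were higher, but a gene that passes the filter through the 8 libraries where it is high has to differ, so the count supports nothing. Hoxb5 ran at 5.59 to 47.8 CPM (median 7.89) in the 8, against 0 to 0.176 CPM (median 0) in the 16, where 11 libraries had no count (log2 fold change 10.12 without E4-05 1), and Hoxa5 at 3.13 to 35 CPM (median 6.96), against 0 to 0.123 CPM (median 0). The 8 and the 16 did not overlap for either gene or for Hoxb8, at 5.19 to 31.8 CPM (median 14.3) in the 8, against 0 to 0.211 CPM (median 0.0405) in the 16. Hoxa6 had 1592 counts over the 8 and 0 over the 16, which with a floor of 3 read pairs, or 6 counts, over the 16 is at least 455-fold higher, and Hoxc6 had 468 and 0, at least 134-fold higher. Hoxa3 had 1668 counts over the 8 and 2 over the 16, and Hoxa2 had 751 and 1. The median log2 fold change of the 21 was 8.32, or 8.16 with Hoxa6 and Hoxc6 set at their bounds.

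Paralog groups are numbered by position in the cluster, with higher numbers expressed farther back along the body. Of paralog groups 1 to 8, 21 of 23 genes were tested, and summed counts over the 8 libraries were 704, 1644, 8537, 7630, 14283, 4553, 851 and 6673 for groups 1 to 8, against 191, 7, 22, 52, 39, 9, 12 and 66 over the 16. None of the 16 genes of groups 9 to 13 was tested, and their sums were 81, 7, 0, 2 and 50 counts in the 8, against 14, 12, 4, 0 and 17 in the 16. Hox genes lie close together with antisense transcripts, and the strand setting of the counting is not given in the sources used here, so reads of a Hox gene and of an antisense partner cannot be told apart. The same holds for Dlx6os1 and Dlx6.

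Other transcription factors of the hindbrain and cerebellum were 37 of 42 tested higher and 3 lower (median 2.49), with 22 without overlap. As for the Hox genes, members that passed the filter only through the 8 had to differ. The counts are therefore a description and not support. En2, an engrailed factor of the midbrain-hindbrain boundary, ran at 21.9 to 120.5 CPM (median 96.4) in the 8, against 0.433 to 5.87 CPM (median 1.44) in the 16, without overlap. Barhl2 (4.06, SE 0.40), Tfap2a (3.84, SE 0.33) and Uncx (3.79, SE 0.33), factors of embryonic neurons of hindbrain and cord, did not overlap either. Ebf1 (2.22, SE 0.18), Ebf2 (2.94, SE 0.23) and Meis1 (2.38, SE 0.16), a cofactor of Hox proteins, were higher, as was Mab21l1 (3.18, SE 0.41). The NFI family, whose motif is marked above, was higher by smaller steps: Nfia (1.05, SE 0.07) and Nfic (0.83, SE 0.10) without overlap, Nfib (0.49, SE 0.11) and Nfix (0.41, SE 0.16) with overlap. The early factors Atoh1 and Ptf1a, which specify cerebellar excitatory and inhibitory precursors, did not pass the filter, with 16 counts over the 8 and 0 over the 16 for Atoh1 and 4 and 0 for Ptf1a. Those lower included Nhlh1 (-1.55, SE 0.42) and Gbx2 (-1.57, SE 0.65). The Iroquois factors Irx3 (2.41, SE 0.41) and Irx5 (2.42, SE 0.42) were higher without overlap, and Irx1 (2.02, SE 0.42) and Irx2 (2.01, SE 0.59) with overlap.

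Of 30 forebrain transcription factors 26 were lower and 0 higher (median -3.5), 19 without overlap. Members that passed the filter only through the 16 had to differ here too. Lhx8, a factor of forebrain cholinergic neurons, ran at 0 to 0.0681 CPM (median 0.0344) in the 8, against 0.144 to 12.5 CPM (median 3.96) in the 16, and Dlx6 (-5.48, SE 0.53), Dlx5 (-4.74, SE 0.42) and Sp9 (-4.43, SE 0.43), of GABAergic lineages, and Bcl11b (-3.62, SE 0.22), of striatal and subcerebral neurons, were lower, with no overlap for these 5. The 4 not called were Neurod2 and Bhlhe22 (0.32, SE 0.23), which granule cells also make, Zfhx3 (-0.15, SE 0.28) and Nkx2-1 (-2.02, SE 0.92). Factors of the diencephalon and midbrain were 5 of 22 higher and 4 lower (median 0.15), and the midbrain factors Foxa1 (-0.03, SE 0.80) and Gata3 (0.72, SE 0.76) were not called, with SE near or above the differences.

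Astrocyte genes differed between lists. Of 20 general astrocyte genes 13 were higher and 4 lower (median 0.29). Aqp4, the water channel of endfeet, ran at 403 to 521 CPM (median 485) in the 8, against 114 to 296 CPM (median 199) in the 16, and S100b at 251 to 368 CPM (median 308), against 76.9 to 156 CPM (median 99.2), both without overlap. Gja1, the gap junction protein connexin 43, was 249 to 293 CPM (median 268), against 181 to 299 CPM (median 234), and Aldh1l1, a folate enzyme used as a pan-astrocyte marker, was not called (0.03, SE 0.07). The 2 glutamate transporters moved apart: per exon length, Slc1a3 (GLAST) held 23.1% to 62.1% (median 56.6%) of their summed RNA in the 8 and 21.3% to 32.5% (median 24.3%) in the 16, the rest being Slc1a2 (GLT-1), which was lower in CPM (-1.11, SE 0.11) without overlap. The shares overlapped through E3-10 1, which had the lowest share of the 8.

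Bergmann glia and hindbrain astrocyte genes were 19 of 20 higher and 0 lower (median 0.87), 8 without overlap. Dao, D-amino acid oxidase of hindbrain astrocytes, ran at 27.4 to 69.7 CPM (median 62.4) in the 8, against 0.0456 to 1.77 CPM (median 0.409) in the 16, and Gdf10, a growth factor of Bergmann glia, at 35.2 to 179 CPM (median 138), against 6.85 to 13.3 CPM (median 10.8). Both were apart in all libraries. A2m (3.31, SE 0.26), a protease inhibitor, Timp4 (1.83, SE 0.12), a metalloproteinase inhibitor, and Hopx (1.78, SE 0.12), a homeodomain-only protein of radial and Bergmann glia, did not overlap either. The hedgehog receptor Ptch1 (1.09, SE 0.10) and its target Gli1 (1.55, SE 0.23) were higher, Gli1 with overlap. Slc6a11, the GABA transporter GAT-3, was not called (-0.14, SE 0.21). Telencephalic astrocyte genes were 10 of 15 lower and 4 higher (median -1.11), 8 lower without overlap. Thbs4 (-3.86, SE 0.34), a thrombospondin of subventricular astrocytes, Crym (-4.55, SE 0.58), a thyroid hormone binding protein that stood at -5.37 without E4-15 4, and Mfge8 (-1.16, SE 0.10), a phagocytic opsonin, were lower in all 8. Lhx2 and Emx2 stand in this list too and are shared with forebrain neurons.

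Reactive astrocyte genes were 8 of 14 higher and 2 lower (median 0.59). Vim (1.52, SE 0.13), vimentin, and H2-D1 (1.19, SE 0.09), a class I antigen whose reads may be shared with near copies, did not overlap. Gfap ran at 209.6 to 699 CPM (median 290.0) in the 8, against 109 to 273 CPM (median 222) in the 16, with overlap, while Serpina3n (-0.21, SE 0.23) and C4b (-0.08, SE 0.16) were not called.

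Myelin genes were 10 of 26 higher and 1 lower, and their median of 0.23 was small beside the spread between libraries. Mbp, the basic protein of compact myelin, ran at 3632 to 9299 CPM (median 4785) in the 8, against 2786 to 6635 CPM (median 3962) in the 16, and was not called. Klk6, a protease of mature oligodendrocytes, was the 1 member without overlap, at 20.6 to 52.1 CPM (median 23.9), against 3.08 to 18.6 CPM (median 6.77). Hapln2 (0.87, SE 0.18), a link protein of nodes of Ranvier, and Trf (0.71, SE 0.15), transferrin, were higher, and Opalin (-0.42, SE 0.15), a membrane protein of mammalian myelin, was lower. Precursor genes were 5 of 13 higher and 6 lower (median 0.18). Gpr17 (-0.93, SE 0.10), Pdgfra (-0.71, SE 0.08) and Tnr (-0.68, SE 0.08) were lower without overlap, and Ednrb (0.76, SE 0.09), which astrocytes share, was higher without overlap.

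Homeostatic microglia genes were lower throughout: 25 of 25 lower, 20 without overlap, with a median of -1.04 and a range of -1.53 to -0.50. Tmem119, a microglial membrane protein, ran at 8.56 to 15.8 CPM (median 10.8) in the 8, against 20.5 to 28 CPM (median 24.3) in the 16, and P2ry12, the purine receptor of resting processes, at 14.5 to 18.7 CPM (median 16), against 27.8 to 59.4 CPM (median 41.7). Csf1r, the receptor for survival signals, ran at 41 to 68.3 CPM (median 48.7), against 79.7 to 124 CPM (median 106), and no range of the 3 overlapped. The differences were largest for Fcrls (-1.53, SE 0.12), an Fc receptor-like protein, P2ry12 and P2ry13 (-1.34, SE 0.12). The 5 members with overlap were the transcription factors Sall1 (-0.50, SE 0.10), Irf8 (-0.68, SE 0.12) and Spi1 (-0.80, SE 0.12), the protease Ctss (-0.74, SE 0.09) and the secreted protein Olfml3 (-0.84, SE 0.08). The complement genes C1qa, C1qb and C1qc belong here and to the complement list. Regional RNA moved with these genes in the same libraries, and its part in the microglial difference was not tested.

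Of 23 genes of disease-associated microglia 7 were higher and 5 lower, with a median of 0.00. Neither count was above the share of all genes (31.4% higher and 28.3% lower). Those lower were Lpl (-2.46, SE 0.24), lipoprotein lipase, which forebrain neurons also make, Cd68 (-1.12, SE 0.10), Trem2 (-1.06, SE 0.11), Tyrobp (-0.91, SE 0.10) and Apoe (-0.22, SE 0.05). Those higher were led by Spp1, which is also a gene of brainstem neurons, at 39.1 to 164 CPM (median 78.8) in the 8, against 7.84 to 38.8 CPM (median 13.9) in the 16, and Lgals3 (1.24, SE 0.22), galectin-3, at a low level of 1.18 to 2.73 CPM (median 1.58), against 0.227 to 1.36 CPM (median 0.795). Itgax (-0.51, SE 0.26), Gpnmb (0.04, SE 0.15), Cst7 (0.06, SE 0.54) and Axl (0.00, SE 0.05) were not called. Border macrophage and blood immune genes were 2 of 16 higher and 3 lower (median 0.14). The neutrophil genes S100a9 (2.40, SE 0.33) and S100a8 (2.37, SE 0.41) were higher, and Mrc1 (-0.26, SE 0.09), Cd163 (-0.61, SE 0.16) and Ptprc (-0.48, SE 0.12) lower. Pf4 (-0.03, SE 0.24), F13a1 (-0.12, SE 0.12) and Cd74 (0.21, SE 0.28) were not called. Complement genes were 3 of 17 higher and 7 lower (median -0.18), the lower ones led by the microglial genes Itgam and C1qa to C1qc, the higher ones C3 (1.43, SE 0.27), Cd59a (0.97, SE 0.18) and Serping1 (0.75, SE 0.15).

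Endothelial genes lay close in both sets. Of 25 endothelial and blood-brain barrier genes 2 were higher and 2 lower, 0 were without overlap in either direction, and the median was -0.05. Cldn5, the tight junction claudin, ran at 27.5 to 45.6 CPM (median 37.7) in the 8, against 28.3 to 43.4 CPM (median 38) in the 16, Pecam1 at 30.8 to 44.2 CPM (median 32.1), against 30.03 to 43.5 CPM (median 35.9), and Mfsd2a, the lipid transporter of the barrier, at 17.7 to 32.4 CPM (median 18.9), against 16.5 to 26.9 CPM (median 21.5). None of these 3 was called, and each set covered nearly the same range. The 4 called were Slc7a5 (0.17, SE 0.05), Bsg (0.14, SE 0.04), Slco1c1 (-0.20, SE 0.09) and Egfl7 (-0.44, SE 0.09). Pericyte and smooth muscle genes were 3 of 16 higher and 2 lower (median -0.14). Des (0.57, SE 0.14), desmin, and Abcc9 (0.36, SE 0.08), a channel subunit of pericytes, were higher, Mylk (-0.63, SE 0.10) and Cspg4 (-0.51, SE 0.08) lower, and Rgs5 (-0.03, SE 0.06), Pdgfrb (-0.08, SE 0.08) and Acta2 (-0.36, SE 0.20) were not called. Fibroblast genes were 9 of 20 higher and 1 lower (median 0.30), among them the collagens Col3a1 (0.60, SE 0.22) and Col1a2 (0.58, SE 0.16) and the growth factor Igf2 (0.55, SE 0.17), each with overlap.

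**Figure D4:**
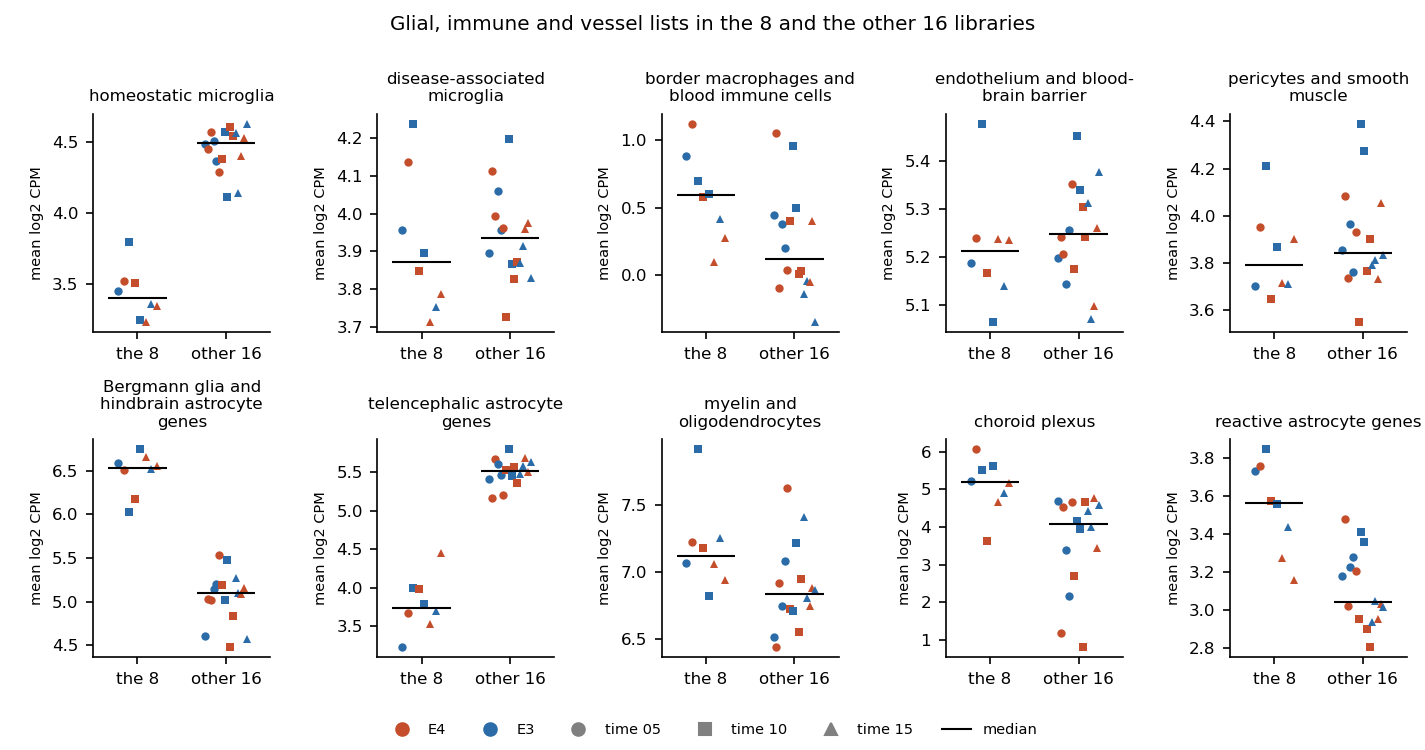
Mean log2 CPM over the tested members of 10 glial, immune and vascular gene lists in the 8 libraries (left) and the other 16 (right). Points are libraries, coloured by E code and shaped by time code, and bars are medians. Homeostatic microglia lie lower in all 8 libraries, Bergmann glia genes higher, and the endothelial list lies at the same level.

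Tissue lining the ventricles and tissue next to the brain varied between libraries. Choroid plexus genes were 10 of 13 higher and 0 lower (median 1.18), but 0 without overlap: Ttr, transthyretin, ran at 289.6 to 2588 CPM (median 1182) in the 8, against 3.498 to 942 CPM (median 508) in the 16. The largest differences were in Slc4a5 (1.88, SE 0.49) and Kcne2 (1.99, SE 0.47), ion transport genes of the plexus, with Slc4a5 at 7.12 to 43.8 CPM (median 25.9), against 0.0880 to 14.2 CPM (median 7.46). Ependymal genes were 6 of 14 higher and 1 lower (median 0.39), with Foxj1 (0.61, SE 0.13), the regulator of motile cilia, higher. The dynein Dnah11 (2.59, SE 0.17) was the 1 member without overlap. Anterior pituitary genes were 1 of 10 higher and 0 lower, and their median of 2.71 rested on E4-10 2 and was -0.98 without it. Gh, growth hormone, was 6099 CPM in E4-10 2 and 7125 CPM in E3-05 4, which is among the 16. Blood genes were 4 of 9 higher and 1 lower (median 1.16), and the haemoglobin gene Hbb-bs, whose reads may be shared with Hbb-bt, ran at 5.78 to 167 CPM (median 12.8) in the 8, against 2.88 to 167 CPM (median 5.43) in the 16. Genes of nerve and muscle were 6 of 12 higher and 1 lower (median 0.79).

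Immediate early genes, which neuronal activity switches on, were 12 of 16 lower and 0 higher (median -1.88). Egr3 ran at 2.87 to 13.8 CPM (median 6.38) in the 8, against 58.8 to 322 CPM (median 166) in the 16, Arc at 28.4 to 42.1 CPM (median 32.3), against 58.8 to 494 CPM (median 183), without overlap. Fos (-0.67, SE 0.26) overlapped, and Dusp1 (-0.34, SE 0.18) and Ier2 (0.19, SE 0.17), which many cell types switch on, were not called. Regional RNA moved with the immediate early genes in the same libraries, and its part in their difference was not tested. Heat shock and chaperone genes were 2 of 14 higher and 4 lower (median -0.03). Cytosolic ribosomal protein genes, whose reads may be shared with processed copies, were 18 of 24 lower and 0 higher, with a median of only -0.23, and Rps2 (-0.72, SE 0.06) was the largest. Nuclear genes of oxidative phosphorylation were 10 of 20 higher and 2 lower (median 0.10). Cholesterol synthesis genes were 6 of 24 higher and 7 lower (median -0.06), near the shares of all genes (31.4% and 28.3%). The isomerase Ebp (0.48, SE 0.05) was higher without overlap, and the regulator Srebf2 (-0.60, SE 0.06) was lower.

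Among genes of the series title and of lipid handling, 11 of 20 were higher and 8 lower (median 0.21). Apoe ran at 821 to 992 CPM (median 878) in the 8, against 908 to 1197 CPM (median 1016) in the 16 (-0.22, SE 0.05), and Asxl1, a chromatin regulator, at 52.8 to 57 CPM (median 56.1), against 56.6 to 67.6 CPM (median 62.1) (-0.16, SE 0.04), both with overlap. Nr1h3, which encodes LXRα, ran at 4.97 to 7.95 CPM (median 6.74), against 2.30 to 3.73 CPM (median 3.04), and Abca7, a lipid transporter, at 40.6 to 63.3 CPM (median 50.8), against 16.1 to 28.3 CPM (median 21.1). Neither overlapped, nor did the lipid droplet coat gene Plin2 (1.03, SE 0.09). Lpl (-2.46, SE 0.24), Sort1 (-0.90, SE 0.10), Trem2 (-1.06, SE 0.11) and Clu (-0.53, SE 0.07) were lower without overlap.

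The 8 libraries were not alike among themselves. In order of Gabra6 they were E4-15 1 (533 CPM), E4-15 4 (495), E3-10 4 (435), E3-05 2 (388), E4-05 3 (364), E3-15 3 (348), E4-10 2 (219) and E3-10 1 (85.5). Slc6a5 was 79.4, 76.2, 98.7, 201, 139.6, 246, 176 and 622 CPM in the same order. The library with the least Gabra6, E3-10 1, had the most Slc6a5, and also the most Hoxb5, 47.8 CPM, before E3-05 2 with 27.9 and E3-15 3 with 14.6. The other 5 lay between 5.59 and 9.07 CPM. E4-15 4 had the most Tbr1 of the 8, 13.6 CPM, against at most 3.33 CPM in the other 7. E4-10 2 had the most pituitary hormone RNA of the 8. Of the 16, E3-15 2 had the most Gabra6, 4.63 CPM, and E4-05 4 the most Slc6a5, 9.21 CPM.

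**Figure D5:**
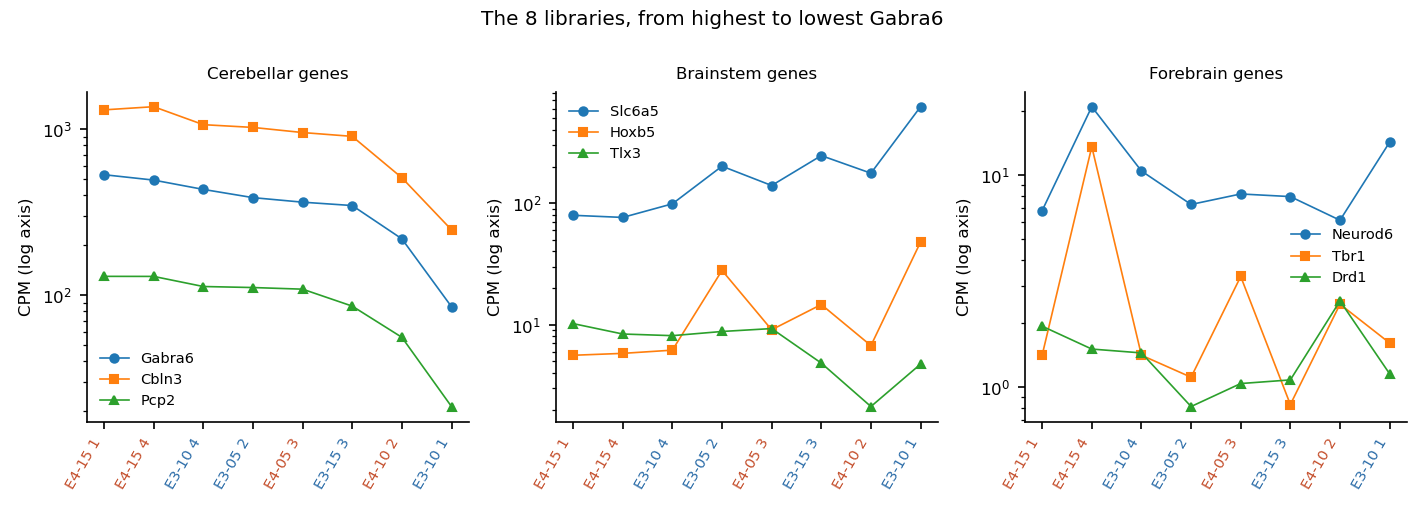
CPM on a log axis of 3 cerebellar, 3 brainstem and 3 forebrain genes in the 8 libraries, which run along the horizontal axis in order of falling Gabra6. Lines join the points of a gene, and the colour of a library name gives its E code. Slc6a5 and Hoxb5 are highest in E3-10 1, where Gabra6 is lowest at 85.5 CPM, and Tbr1 peaks in E4-15 4.

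The E code was tested within the 8 libraries, 4 with E4 and 4 with E3, in a fit over all 24 with time code as a covariate. In edgeR 0 of 20437 genes (0%) passed, 1406 had an unadjusted p under 0.05, where 1022 would be expected with no difference, and the smallest adjusted p was 0.537. DESeq2 called 5 and limma-voom 0. The smallest p belonged to Syn3, a synapsin of presynaptic vesicles, at 29.8 to 34.8 (median 33.4) CPM in E4 libraries and 42.4 to 54.6 (median 47.9) CPM in E3 libraries (log2 fold change -0.56, SE 0.11, edgeR adjusted p = 0.537). The next were Skap2, an adaptor of Src kinases (-0.51, SE 0.10), Pex6, a peroxisomal import ATPase (0.25, SE 0.05), Fyco1, a transport adaptor of autophagosomes (-0.41, SE 0.09), and Mtln, a mitochondrial micropeptide (0.55, SE 0.12). Adjusted p for these 5 in edgeR was 0.537 to 0.639. The E4 and E3 ranges of each did not overlap among the 8, which is how genes picked for the smallest p are likely to look.

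Within the 8, regional genes lay unevenly between the E codes, given here as a description. E4 minus E3, 20 of 21 Hox genes lay below 0 (median -1.58) and 22 of 26 brainstem genes (median -0.82), whereas 21 of 24 granule cell genes lay above 0 (median 0.24), 21 of 25 Purkinje cell genes (median 0.13) and 24 of 30 forebrain transcription factors (median 0.49). Myelin genes lay below 0 in 25 of 26 (median -0.21) and choroid plexus genes in 12 of 13 (median -0.41). Over all 20437 genes 9753 lay below 0 and 10684 above (median 0.01). Genes of a list share the same libraries, so these counts are not independent. List means of the E4 and E3 libraries overlapped for each of these lists. The mean log2 CPM of Hox genes was -0.02 to 1.04 in E4 and 0.03 to 3.00 in E3. That of granule cell genes was 7.23 to 8.15 in E4 and 6.46 to 7.87 in E3. The mean log2 CPM of the myelin genes was 6.94 to 7.23 in the 4 E4 libraries (median 7.12), against 7.92 in E3-10 1 and 6.83 to 7.25 in the other 3 E3 libraries (median of the 4, 7.16). E3-10 1, E3-05 2 and E3-15 3, which had the most Hoxb5, all carry E3. The part of this regional difference in any E4 against E3 value was not tested. Homeostatic microglia genes stood at a median of -0.09.

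The interaction asked whether the difference between E4 and E3 was another in the 8 libraries than in the 16. By edgeR 0 genes (0%) passed, 958 had an unadjusted p under 0.05 and the smallest adjusted p was 0.705. No call came from DESeq2 (0) or limma-voom (0). The smallest p belonged to the pituitary genes Fshb and Pou1f1, which were high in 1 E4 library of the 8 (E4-10 2) and 1 E3 library of the 16 (E3-05 4). Syn3 followed, whose E4 libraries ran at 30.7 to 39.7 (median 35.2) CPM and E3 libraries at 28.5 to 39.6 (median 35.2) CPM in the 16.

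Time codes were tested the same way, with 2, 3 and 3 libraries at 05, 10 and 15. Within the 8, 0 genes (0%) passed in edgeR, 1321 had an unadjusted p under 0.05, and the smallest adjusted p was 0.349. DESeq2 called 2 and limma-voom 0. Without E3-10 4 edgeR called 459 genes, with 2 libraries left at code 10, and without E3-05 2 it called 2, with 1 library left at code 05, which is assumed to vary like the rest. Csf3r, the receptor for granulocyte colony-stimulating factor, which microglia carry, was among the 5 genes with the smallest p, at 2.69 to 3.32 (median 2.91) CPM in the libraries of code 15 and 4.94 and 6.06 CPM in those of code 05 (log2 fold change -0.92, adjusted p = 0.76). The interaction of time code with column set gave 0 calls in edgeR (0%), 694 at an unadjusted p under 0.05 and a smallest adjusted p of 0.13, for the predicted gene Gm41414, with 1 call by DESeq2 and 0 by limma-voom. Without E3-10 4 edgeR called 36, and without E3-05 2 or E3-15 4 it called 1 each.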

How the data were processed

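The authors deposited 1 table of raw read counts per gene, with 1 column for each of 24 libraries of polyadenylated mouse brain RNA, made with a NEBNext Ultra kit and read on a NovaSeq instrument per the labels. Alignment used HISAT2 2.1.0 and counting featureCounts 2.0.6 on mm39, per the submitters' processing notes. Annotation and strand setting of the counting are not given in the sources used here. Between 62.6% and 70.8% of low counts were even, so a read pair was mostly counted as 2 reads.

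Groups came from the labels. Genes below edgeR's default filter over the 6 groups of E code and time code were left out, which kept 20437 of 40836. edgeR 4.0.16 (R 4.3.3) with TMM scaling fitted column set, E code and time code to all 24 libraries, with 19 residual degrees of freedom, and nested and interaction fits tested E code and time code; p-values were adjusted over all genes by Benjamini and Hochberg. The script was tested on simulated data. Alternatives used DESeq2 1.42.0, limma 3.58.1 and other filters and sample sets.

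The 8 columns, the 52 gene lists (909 genes, 877 tested) and the tests were chosen with earlier results of these data known. Named were members of the lists, by default the first 2 and those with the largest changes, 15 genes in each direction (the widest fold changes of called genes without overlap and with at least 10 CPM in the higher set), and the 5 smallest p of each test. Levels per length used GENCODE vM21 exon lengths, matched by symbol for 17819 genes. The length of a gene joined all its annotated exons, so the size of a share within a family is approximate. Some genes are not reported here. Lower bounds on folds cover counting error only.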

Additional observations from a re-analysis of the deposited data

Results flagged for a closer look

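For 57 values, the 52 list means and 5 others, the highest and lowest of the 8 libraries were compared with the other 7 by Dixon's ratio, the gap to the nearest library over the whole range, with a 95% critical value of 0.526. It was passed by 6 list means, and chance flags about 1 in 20. E3-10 1, the library with the least Gabra6 and the most Slc6a5, stood out in 5 of them. Its mean log2 CPM over myelin genes was 7.918, against 6.825 to 7.254 in the other 7, and over oligodendrocyte precursor genes 5.685, against 5.185 to 5.409. Over endothelial genes it was 5.478, against 5.063 to 5.24. It was also the highest for nuclear genes of oxidative phosphorylation, 7.395 against 7.19 to 7.256, and for cholesterol synthesis genes, 6.005 against 5.406 to 5.678. In E4-10 2 the anterior pituitary genes averaged 6.15 log2 CPM, against -1.006 to 1.521 in the other 7.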

How the results depend on the processing

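With a change beyond 2-fold, 1793 genes were higher and 1885 lower in the 8 libraries. Leaving out each library in turn gave 1720 to 1934 higher and 1853 to 2025 lower. A filter of 1 CPM in 8 libraries gave 859 and 1184, no minimum fold 6410 and 5782, and an adjusted p under 0.01 with a log2 fold change beyond 2 gave 602 and 742. The other scalings, tools and sample sets that were run stayed within 1.5 times of the main counts. Of 15551 alternative values for 421 named genes 39 moved beyond the spread, and of 1924 for the 52 list medians 11 did. Among named genes called in the main fit 0 values changed sign. Genes not called could change sign, as Gh did, from 3.127 to -1.025 without E4-10 2. List medians were not scored for sign, and that of the anterior pituitary went from 2.71 to -0.98 without E4-10 2. Without E4-10 2, E3-05 2 and E3-10 1, an alternative chosen after the data were seen, the medians were -1.99 for forebrain interneurons, -0.75 for potassium channels, -0.78 for synapse organizers and 0.0029 for oligodendrocyte precursors.

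DESeq2 called 5 genes for the E code within the 8, 2 for time codes within the 8 and 1 for the interaction of time code with column set. Calls for time codes within the 8 were 2 once libraries of over 100 CPM Hbb-bs were left out and 1 without the 3 libraries named above, where the time interaction also gave 1; these leave 1 library of the 8 at code 05, and without the 3 also 1 at code 10, and a lone library is assumed to vary like the rest. With 1 library left out, time codes within the 8 gave 0 to 459 calls and the time interaction 0 to 36, both highest without E3-10 4, and both E code tests gave 0. The cause was not tested. No pairing by replicate number was seen over all groups pooled: deviations from the group means correlated at a median of -0.0149 over 60 same-numbered pairs and 0.0129 over 180 others. The pairs join samples from any of the 6 groups, so pairing of E3 with E4 within a time code was not tested apart. A fit with a replicate block gave 1798 higher and 1878 lower genes and 0 calls in the 4 tests. The time code tests within the 8 were not run with column triplets as a block, which take the place of the time code. Small groups of 2 to 4 libraries limit these tests, and genes of under 1 CPM rest on few counts.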
